A study of Mus musculus with 7 samples.

Results

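The miRNA described here is mmu-mir-378, a 66 nt hairpin inside an intron of Ppargc1b, the gene of the transcriptional coactivator PGC-1β. Its members were the tags, that is the individual sequence reads, whose best ungapped placement, with at most 2 mismatches, was on this hairpin. Best hits were sought over all annotated mouse hairpins, and only hits on the 623 annotated copies of hairpins in the study's list were kept. Keeping the hits on all annotated hairpins was tried as an alternative. The members numbered 697063 of the 41180695 tags deposited with a sequence. They had 536 of the 75391 distinct sequences placed on the hairpins kept. The 3′ arm gives miR-378, the abundant strand, with 650172 tags in 365 distinct sequences. The 5′ arm gives the passenger strand miR-378*, with 46891 tags in 171 distinct sequences.

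HL-1 is an established mouse line of atrial cardiomyocytes, which keeps dividing and can beat in culture. Small RNA under 70 nt was sequenced from HL-1 cultures at day 1, 2, 3 and 4 after seeding, with no other treatment or genotype. Libraries of time course 2 covered all 4 days, and those of time course 1 covered days 1, 3 and 4, which gives 7 libraries. The replicate number marks an independent repeat of the time course. All cultures are of 1 cell line, so they stand for that line and not for heart tissue.

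A miRNA is cut from its hairpin in 2 steps. Drosha cuts at the base of the hairpin and sets the 5′ end of the 5′ arm strand and the 3′ end of the 3′ arm strand, and Dicer cuts near the loop and sets the other pair of ends. One strand is usually kept in the silencing complex and the other, the miR*, is mostly lost. Tags that differ from the reference ends are called 5′ isomiRs and 3′ isomiRs, and a shift of the 5′ end also shifts the seed that pairs with target mRNAs. The host gene Ppargc1b acts with nuclear receptors on mitochondrial and fatty acid metabolism, and both strands of mir-378 have been studied in muscle, heart, liver and adipose tissue for roles in energy metabolism. Ppargc1b mRNA was not measured in these libraries.

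On GRCm38, the GENCODE build used here, the hairpin lies at chr18:61397835-61397900 on the minus strand. Ppargc1b spans chr18:61298136-61400431 on the same strand, and 0 of its annotated exons overlap the hairpin. Of the related hairpins, mir-378b lies at chr11:88352773-88352864 on the plus strand, mir-378c at chr14:46954830-46954928 on the minus strand and mir-378d at chr10:126710282-126710391 on the minus strand. Placement alone could not separate 48974 tags, or 7.03% of those on mir-378, from a relative, and 48546 of them matched mir-378c equally well. Tags that fitted a relative better than mir-378 numbered 20 for mir-378b, 0 for mir-378c and 1 for mir-378d. The relatives were not in the hairpin list used here, so the shared tags were counted whole for mir-378. Dividing them over all annotated hairpins changed no call or direction of mir-378.

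Library depth was 4945093 to 6899411 deposited tags, of which 99.5% to 99.7% were placed on a hairpin used here. Abundance is given as CPM, the count of a strand scaled to a fixed total of placed tags in each library. The miRNAs of striated muscle fixed as markers (miR-1, miR-133a, miR-133b, miR-206, miR-208a, miR-208b and miR-499) made up 10.5% ± 0.81 of tags (SD, n = 7), between 9.57% and 11.6% in each library. Within that list miR-1a-3p averaged 64489 CPM, whereas miR-499-5p averaged 6.64 CPM and miR-208b-3p 3.57 CPM. Marker miRNAs of endothelium (miR-126) were at 0.0739% ± 0.0169, and those of blood, fibroblasts, neurons, epithelium and hepatocytes were each at most 0.00435% of tags in any library. In the day 4 library of time course 2, which stands apart below, the muscle list held 10.01% and miR-126 0.0923% of tags, against 9.57% to 11.6% and 0.0483% to 0.0917% in the other 6 libraries, and their part in the results was not tested.

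miR-378 ranked fifteenth of 1102 strands with any tag, at 15524 ± 3259 CPM (SD, n = 7). In time course 2 it had 16377, 13810, 17869 and 20255 CPM on days 1, 2, 3 and 4. In time course 1 it had 16820, 12841 and 10697 CPM on days 1, 3 and 4. The libraries of day 4 thus held both the highest and the lowest level of the series, and the day 1 libraries lay close together between them. Its rank within a library ran between 12 and 27.

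The strands next above miR-378 in mean CPM were miR-30c-5p at 19290 ± 4227, miR-21a-5p at 17489 ± 5232 and miR-15b-5p at 16076 ± 2346 CPM. Those next below were miR-23b-3p at 15192 ± 3164, miR-130a-3p at 14284 ± 3355 and miR-107-3p at 14076 ± 1926 CPM. None of these 6 neighbours stood apart from miR-378 beyond its spread: the mean log2 ratio to miR-378 ran between −0.13 and 0.31, and each was smaller than its own SD over the 7 libraries, which ran between 0.29 and 0.63. The SD of the log2 CPM of miR-378 was 0.31, against a median of 0.41 over the 460 strands with 150 tags or more over all libraries, and 321 strands varied more. Nearly all of these strands had fewer tags than miR-378, and low counts widen an SD. This rank therefore does not set miR-378 apart from strands of like abundance. Among the 6 neighbours the SD of CPM ran between 1926 and 5232, and that of miR-378, at 3259, lay in the middle.

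miR-378*, the strand on the other arm, averaged 1186 ± 653 CPM and ranked 81 of 1102. In time course 2 it had 728, 2077, 1725 and 91.2 CPM on days 1, 2, 3 and 4. In time course 1 it had 1383, 1249 and 1046 CPM on days 1, 3 and 4. The day 4 library of time course 2 stood far below the other 6, which did not fall under 728 CPM, and it was at the same time the library with the most miR-378. Without that library miR-378* averaged 1368 ± 481 CPM (SD, n = 6) and miR-378 averaged 14736 ± 2743 CPM.

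**Figure D1:**
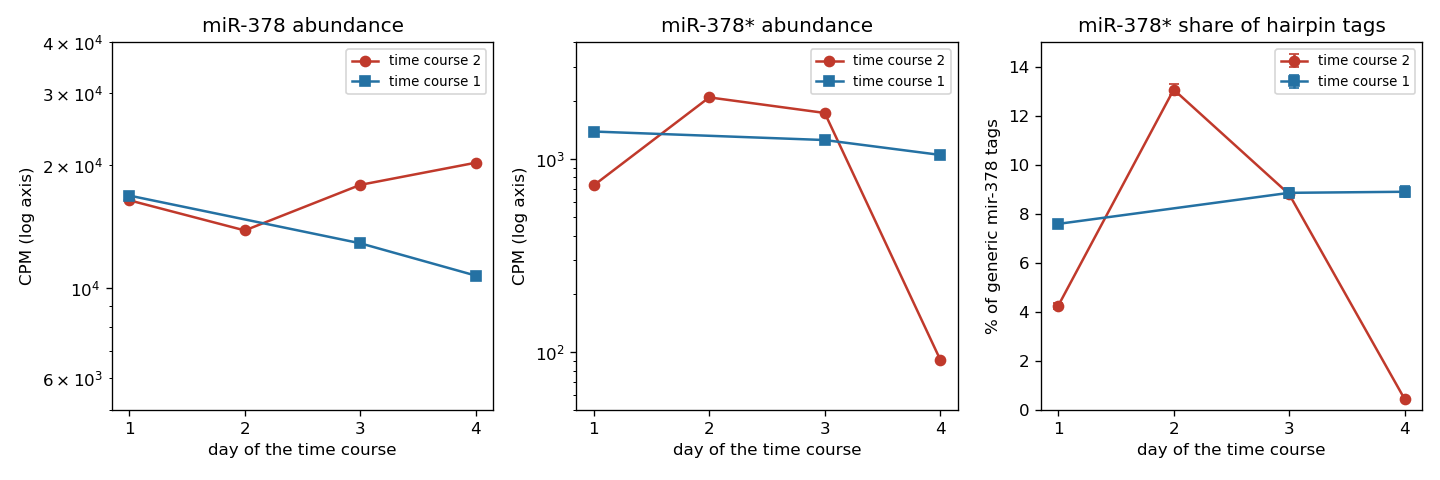
Abundance of miR-378 and miR-378* in CPM (log axes) and the miR-378* share of generic mir-378 tags in percent, by day, with 1 point for each library and lines joining the libraries of a time course (time course 1 has no day 2 library). Bars on the share are 95% Wilson intervals, most of them smaller than the symbols. On day 4 of time course 2, miR-378* dropped to 91.2 CPM and 0.446% of the hairpin's tags while miR-378 stood at 20255 CPM.

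The 2 strands of a hairpin are read in the same library, so their ratio does not depend on how the library is scaled. Of generic tags, those starting within 3 nt of the reference start, miR-378* held 4.25%, 13.1%, 8.80% and 0.446% on days 1, 2, 3 and 4 of time course 2. It held 7.60%, 8.86% and 8.91% on days 1, 3 and 4 of time course 1. The 95% Wilson interval of the lowest of these shares was 0.413% to 0.482% and that of the next lowest was 4.13% to 4.38%, and such intervals cover counting error only. There were 223.1 miR-378 tags for each miR-378* tag in the day 4 library of time course 2, and between 6.65 and 22.5 in the other 6 libraries. The mean share was 7.42% ± 4.02 (SD, n = 7), and 8.58% ± 2.83 without that library (n = 6).

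Among all strands, miR-378* was the one that departed furthest downward in that library. Its log2 CPM there was 3.84 below the median of the other 6 libraries, the lowest of 460 strands, whose median departure in that library was −0.03. The value for miR-378 was 0.43, above zero. Of the 259 strands with 1500 tags or more over all libraries, 3 lay at least 4-fold below their median there: miR-378*, miR-324-3p at −2.71 and miR-344d-5p at −2.37 on the log2 scale. Departures of this size occurred for other strands in other libraries. miR-221-3p was at −4.36 in the day 4 library of time course 1, and miR-678-5p was at −3.95 in the day 3 library of time course 2.

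**Figure D2:**
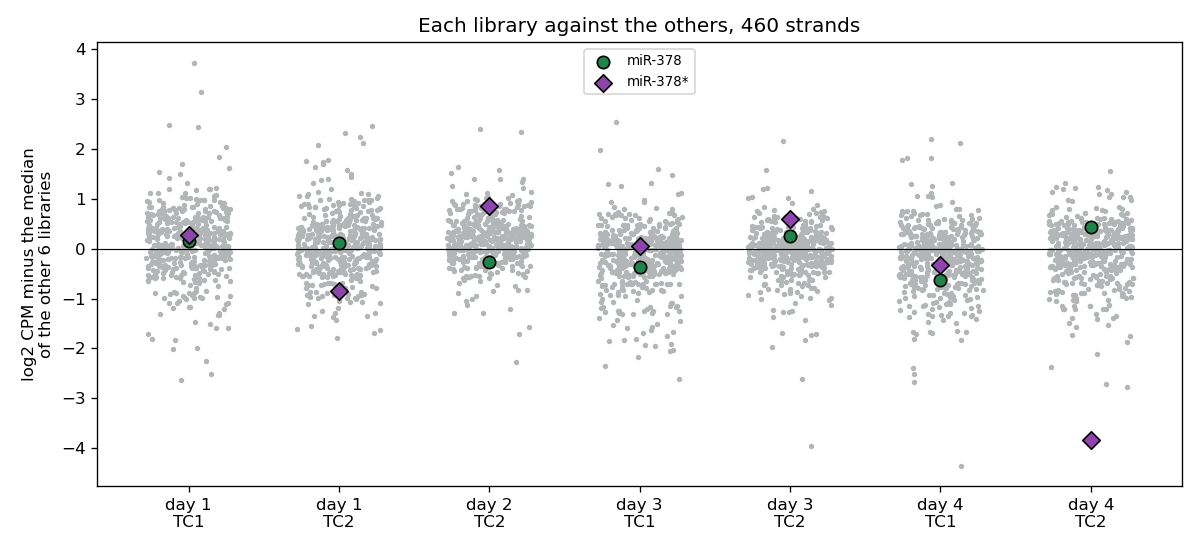
Log2 CPM (0.5 CPM added) in each library minus the median of the other 6 libraries, for 460 strands with 150 tags or more over all libraries (grey points), with miR-378 and miR-378* marked. TC2 and TC1 on the axis stand for time course 2 and time course 1. miR-378* is the lowest point of the day 4 library of time course 2 at −3.84, where miR-378 is at 0.43.

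The balance of the arms was compared in the same way over the 195 hairpins with at least 50 tags in every library. On the log2 odds scale, the 5p share of mir-378 on day 4 of time course 2 was 4.43 below the median of the other libraries, the largest departure of any hairpin in that library, against a median absolute departure of 0.47. Over the 7 libraries the log2 odds of mir-378 had an SD of 1.71, the fifth largest of 195, where the median was 0.60. Over the other 6 libraries its SD was 0.57, and 99 of the 195 hairpins varied more. The library left out was the one in which mir-378 departed most, a choice that favours a lower place for its SD. Over the other 6 libraries its miR-378* share still ran between 4.25% and 13.1%.

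The miR-378* tags that remained on day 4 of time course 2 also ended differently. Of generic miR-378* tags, 22.8% ended before the reference end in that library, and 6.32% to 8.49% did so in the other 6. The dominant 22 nt form, hairpin positions 5 to 26, had 433 tags or 63.0 CPM there, which was 0.0575 of the median of the other libraries. The 23 nt form ending at position 27 had 5 tags and stood at 0.0289 of that median. The form ending at position 25 had 36 tags and stood at 0.0704 of the median, close to the dominant form. The forms that ended further upstream were less reduced. The form ending at position 24 had 52 tags and stood at 0.404 of the median, and that ending at position 23 had 25 tags and stood at 0.923. The form ending at position 22 had 10 tags or 1.45 CPM, within the 0.372 to 1.56 CPM of the other libraries. The reduction thus covered the forms that end at positions 24 to 28 and was smallest in the shortest of them. These ratios rest on 1 library and have no replicate check.

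**Figure D3:**
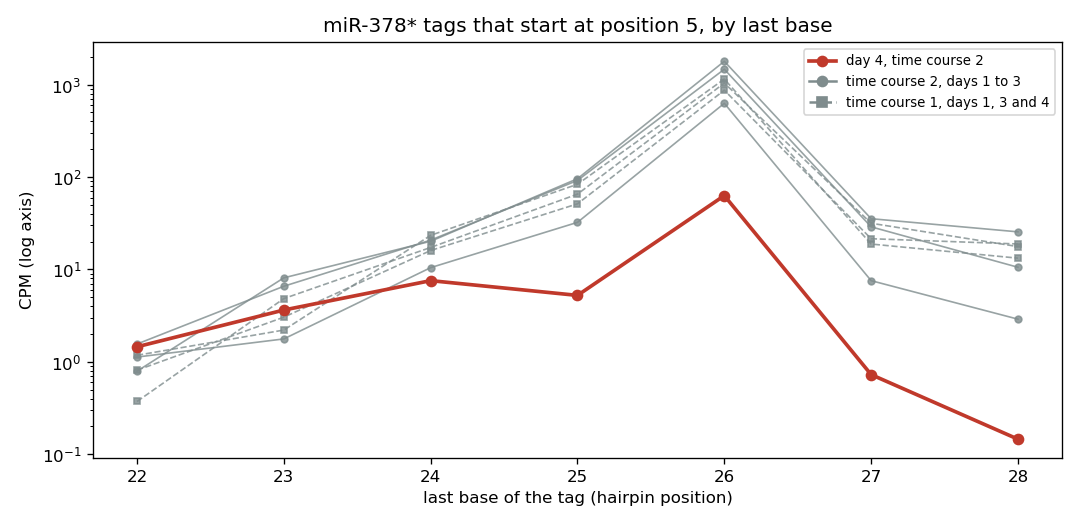
miR-378* tags starting at hairpin position 5, by the position of their last base, in CPM (log axis), with a line for each library. On day 4 of time course 2 the 22 nt form ending at position 26 is at 63.0 CPM, below all other libraries, while the form ending at position 23 lies within their range.

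Day 4, when most cells of such cultures beat, was set against day 1. miR-378 averaged 15476 ± 6758 CPM on day 4 and 16599 ± 314 CPM on day 1 (SD, n = 2 each). Its log2 change was 0.05 with an SE of 0.35 after TMM scaling (edgeR's adjustment for composition, used in all edgeR values here), and the adjusted p of edgeR's quasi-likelihood test was 0.99. Scaled to library totals, as CPM is, the change was −0.10, so its direction depended on the scaling. miR-378* averaged 569 ± 675 CPM on day 4 and 1055 ± 463 CPM on day 1, a log2 change of −0.71 with an SE of 0.85 and an edgeR adjusted p of 0.82. Neither strand passed, and 0 of 704 strands did (0%) at a Benjamini-Hochberg adjusted p under 0.05, where 74 strands had an unadjusted p under 0.05 and DESeq2 called 12 of 431. With time course as a block in edgeR, 46 of 704 strands passed, and mir-378 was not among them: the log2 change was −0.01 (SE 0.25, adjusted p 0.99) for miR-378 and −1.14 (SE 0.53, adjusted p 0.25) for miR-378*.

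The miR-378* result turned on the day 4 libraries. Without the day 4 library of time course 2, its log2 change was 0.10 with an edgeR adjusted p of 0.97. Without that of time course 1, it was −3.39 with an edgeR adjusted p of 0.023, and miR-378* was then the 1 strand of 697 that passed. That fit assumes that a lone day 4 library varies like the other groups. Within a time course the log2 levels were compared after TMM scaling, so they differ from ratios of the CPM above. Within time course 2 the log2 level on day 4 was 2.92 lower for miR-378* and 0.38 higher for miR-378 than on day 1. Within time course 1 it was 0.17 lower for miR-378* and 0.42 lower for miR-378. miR-378 thus moved in opposite directions by day 4 in the 2 time courses. A term for the difference between time courses in the change to days 3 and 4 was 0.73 on the log2 scale for miR-378, with an SE of 0.34 and an edgeR adjusted p of 0.88, and 0 of 704 strands passed it.

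The later days were also set against the earlier days. miR-378 averaged 15415 ± 4409 CPM over days 3 and 4 (n = 4) and 15669 ± 1625 CPM over days 1 and 2 (n = 3). The log2 change after TMM scaling was 0.17 with an SE of 0.24 and an edgeR adjusted p of 0.88, and scaled to library totals it was −0.024. miR-378* averaged 1028 ± 686 CPM over days 3 and 4 and 1396 ± 675 CPM over days 1 and 2, a log2 change of −0.22 with an SE of 0.70 and an edgeR adjusted p of 0.95. Over all strands, 3 of 610 passed (0.492%), namely miR-136-5p, miR-210-5p and miR-211-3p, and DESeq2 called 15 of 397. Without the day 1 library of time course 2, 0 of 621 passed. Both strands of mir-378 were among those that differed by less than the spread between libraries.

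Time course 2 and time course 1 were compared with day in the model. miR-378 averaged 17078 ± 2701 CPM in time course 2 (n = 4) and 13453 ± 3107 CPM in time course 1 (n = 3), with a day-adjusted log2 difference of 0.48, an SE of 0.21 and an edgeR adjusted p of 0.15. miR-378* averaged 1155 ± 911 CPM in time course 2 and 1226 ± 169 CPM in time course 1, with a log2 difference of −1.22, an SE of 0.46 and an edgeR adjusted p of 0.10. Of all strands 64 of 704 passed (9.09%), 44 higher and 20 lower in time course 2, and neither strand of mir-378 was among them. This count cannot be set against those of the day fits above, which had no term for time course. With time course as a block, 46 of 704 passed for day 4 against day 1 and 3 of 643 for days 3 and 4 against days 1 and 2. Without the day 4 library of time course 2, the difference of miR-378* was −0.24 and that of miR-378 was 0.21. With no filter on low counts miR-378* passed at −1.17 (edgeR adjusted p 0.0026). The count of 64 strands fell to 0 without either day 1 library and to 3 without either day 3 library.

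The miR-378* share of hairpin tags gave the same picture as its abundance. It averaged 4.68% ± 5.98 on day 4 and 5.93% ± 2.36 on day 1 (n = 2 each), a change of −1.53 on the log2 odds scale with an SE of 1.21 and a limma adjusted p of 0.68. No hairpin of 195 passed (0%), where 18 had an unadjusted p under 0.05. Without the day 4 library of time course 2 the change was 0.69. Over days 3 and 4 the share was 6.75% ± 4.21 (n = 4), against 8.31% ± 4.45 over days 1 and 2 (n = 3), a change of −0.86 with a limma adjusted p of 0.77. Again 0 of 195 hairpins passed (0%), where 21 had an unadjusted p under 0.05. In time course 2 it was 6.64% ± 5.48 (n = 4), against 8.45% ± 0.744 in time course 1 (n = 3), a day-adjusted difference of −1.78 with an SE of 0.77 and a limma adjusted p of 0.30, and 1 of 195 hairpins passed (0.513%). That hairpin was not mir-378. With 1 library left out at a time, however, the limma adjusted p of mir-378 ran between 0.00023 and 0.64, so its call depended on the library left out. Leaving out either day 3 library made the difference of mir-378 between time courses −2.67, an estimate that rests on the day 1 and day 4 pairs alone. Leaving out either day 4 library made it −0.45. The day 2 library has no partner in time course 1 and adds nothing to these estimates.

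The cuts that make the 2 strands were read from the first and last bases of tags, numbered from 1 at the 5′ end of the hairpin. miR-378 started at position 43 in 96.9% of its tags, at position 44 in 2.75% and at position 42 in 0.313%. miR-378* started at position 5 in 94.4%, at position 6 in 4.92% and at position 4 in 0.505%. Both strands thus had 1 dominant 5′ end and a minor one a base downstream. The last base was less fixed for miR-378 than for miR-378*. miR-378 ended at position 63 in 38.6% of generic tags, at position 64 in 38.5%, at position 65 in 11.96% and at position 62 in 5.91%. miR-378* ended at position 26 in 89.2%, at position 25 in 5.32% and at position 27 in 1.83%. Of all miR-378 tags 37 started outside the window of 3 nt and so were not generic, and of all miR-378* tags 14 did.

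**Figure D4:**
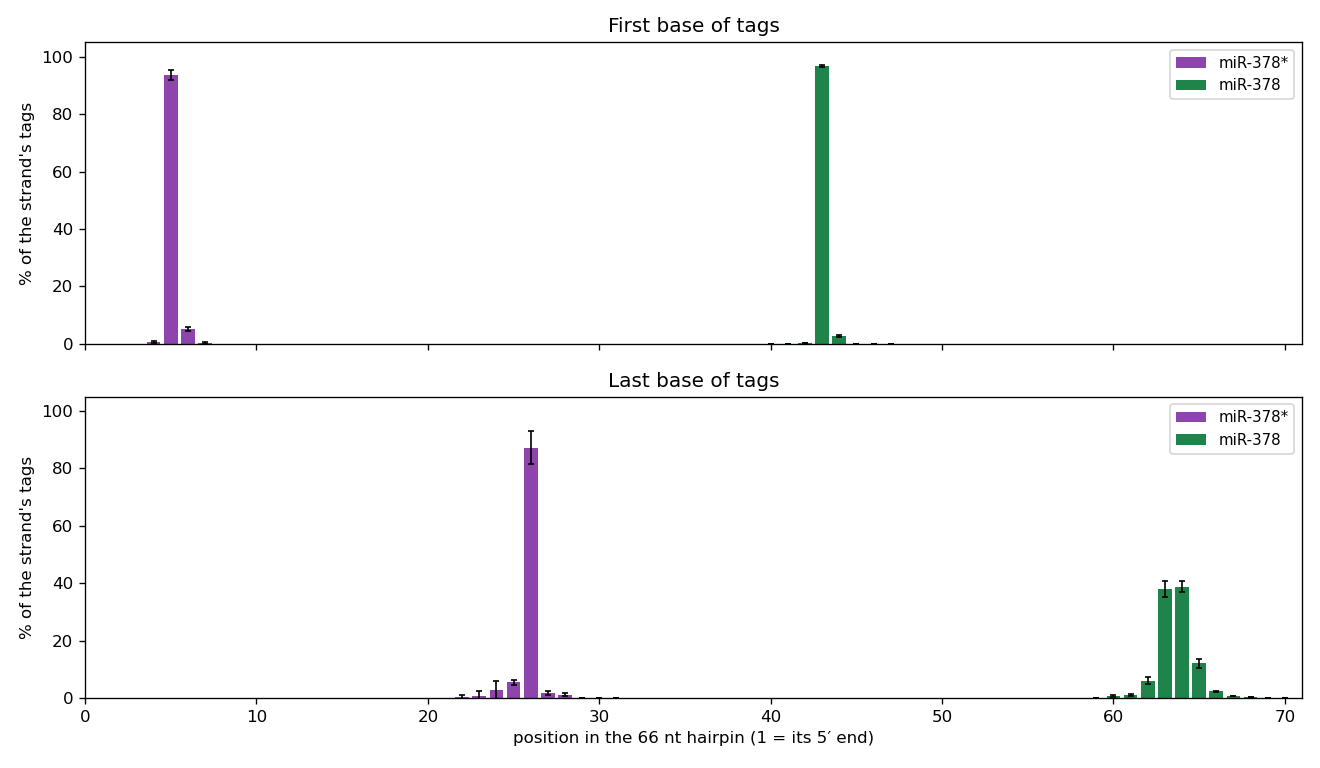
Percent of the tags of miR-378* and miR-378 that begin (upper panel, all tags) or end (lower panel, generic tags) at each position of the 66 nt hairpin. Bars are means and error bars SDs over 7 libraries, for positions with 10 tags or more over all libraries. The last bases of miR-378 are shared between positions 63 and 64, at 38.6% and 38.5% of merged tags, while 89.2% of miR-378* tags end at position 26.

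The reference ends used for counting isomiRs were the most frequent ones of the merged set, positions 43 to 63 for miR-378 and 5 to 26 for miR-378*. Positions 63 and 64 were nearly tied, so the 3′ isomiR share of miR-378 counts a form as frequent as the reference itself. In single forms, the 21 nt form from 43 to 63 had 244031 tags, the 22 nt form from 43 to 64 had 241171, the 23 nt form had 76157, the 20 nt form had 37238 and the 24 nt form had 13961.

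In the fold of the 66 nt hairpin predicted by RNAfold, 24 base pairs formed at a free energy of −38.5 kcal/mol, with an unpaired terminal loop of 8 nt. The start of miR-378* at position 5 was paired with position 62. The 21 nt, 22 nt and 23 nt forms of miR-378 therefore left 3′ overhangs of 1, 2 and 3 nt at the Drosha side. The start of miR-378 at position 43 was paired with position 24, so that the end of miR-378* at position 26 left an overhang of 2 nt at the Dicer side. An overhang of 2 nt is what these RNase III enzymes typically leave. Between the strands, 16 nt of the hairpin lay in neither reference form.

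The balance of the 21 nt and 22 nt forms of miR-378 was close to even in most libraries. The 22 nt form took 35.0%, 37.4%, 37.5% and 38.1% of generic tags on days 1, 2, 3 and 4 of time course 2, against 40.1%, 37.0%, 37.7% and 38.4% for the 21 nt form. In time course 1 it took 36.1%, 36.2% and 40.7% on days 1, 3 and 4, against 38.1%, 35.9% and 31.6% for the 21 nt form. The log2 ratio of 22 nt to 21 nt tags averaged 0.01 ± 0.17 (SD, n = 7) and was above zero in 3 of 7 libraries. The day 4 library of time course 1, which had the least miR-378, leaned most to the longer form at 0.37, and the day 1 library of time course 2 leaned most to the shorter form at −0.20.

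**Figure D5:**
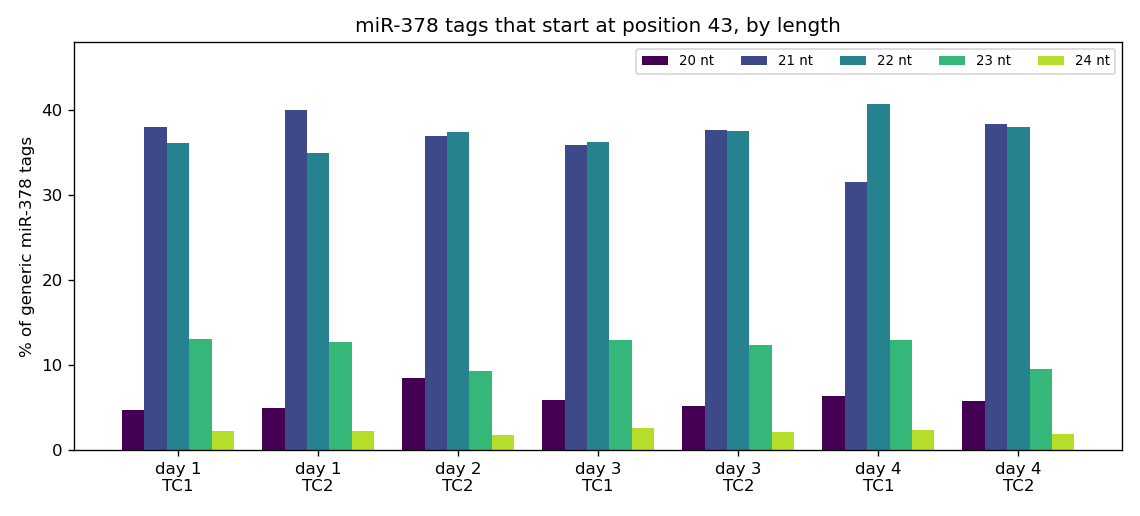
Share of generic miR-378 tags, in percent, held by the forms of 20 to 24 nt that start at hairpin position 43, in each library, with TC2 and TC1 standing for time course 2 and time course 1. Each bar is 1 form in 1 library. Both the 21 nt and the 22 nt form take 35.0% to 40.1% of tags except on day 4 of time course 1, where they take 31.6% and 40.7%.

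Start and end went together weakly. miR-378 tags that started a base downstream, at position 44, most often ended at position 64 (47.0%), while those starting at position 43 ended at 63 and 64 in 38.8% and 38.3%. The mean end of the downstream starters lay 0.77 ± 0.05 nt past position 63 (SD, n = 7) and that of the starters at 43 lay 0.64 ± 0.06 nt past it. miR-378* tags starting at position 6 ended at position 26 in 89.5%, as did 89.4% of those starting at position 5. Their mean length was 21.1 ± 0.05 nt, against 21.9 ± 0.14 nt for the starters at 5.

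miR-378* varied more at its 5′ end and much less at its 3′ end than miR-378. The 5′ isomiR share was 6.15% ± 1.60 for miR-378* and 3.08% ± 0.39 for miR-378 (SD, n = 7), a mean within-library difference of 3.07 points that was above zero in 7 of 7 libraries (exact two-sided sign-flip permutation test, p = 0.0156, the smallest that 7 libraries allow). The 3′ isomiR share was 12.8% ± 5.82 for miR-378* and 62.0% ± 2.83 for miR-378, a difference of −49.2 points that was below zero in every library (same exact test, p = 0.0156). Both differences kept their direction within time course 2 and within time course 1, where 4 and 3 libraries allow no p under 0.125 and 0.25 in the exact test. For miR-378 the tags ending past position 63 made up 54.2% ± 2.45 and those ending before it 7.81% ± 1.69. This split rests on the choice of position 63 as the reference end. Position 64 was nearly tied with it, at 38.5% of merged generic tags against 38.6%. Counted from position 64, the tags ending at position 63 would be shortened forms. Whether the 3′ variation of miR-378 was mostly extension therefore cannot be decided. For miR-378*, counted from its own reference end, 3.36% ± 1.06 of tags were extended and 9.42% ± 5.92 were shortened.

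Set beside other strands of the same arm with at least 150 tags, miR-378 had a low 5′ isomiR share. Its 3.14% of merged tags was under the 7.41% median of 205 strands on the 3′ arm, of which 62 had a lower share. The 5.57% of miR-378* was over the 2.25% median of 197 strands on the 5′ arm, of which 138 had a lower share. In 3′ isomiRs, the 61.4% of miR-378 was close to the median of 60.3%, and the 10.8% of miR-378* was under that of all but 2 of the 197 strands, whose median was 64.5%. Counted over the arms of single hairpin copies, before copies were merged into strands, 883 had reference ends from RefSeq. Another 313, both arms of mir-378 included, took the most frequent tag ends, and this second rule makes the isomiR share smaller by its construction. How the 205 and 197 strands compared here divide between these rules was not counted.

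None of the isomiR shares changed with the day beyond the spread between libraries. On day 4 the 5′ isomiR share of miR-378 was 3.31% ± 0.72, against 2.92% ± 0.26 on day 1 (n = 2 each), a log2 odds change of 0.17 with an SE of 0.25 and a limma adjusted p of 0.97. Its 3′ isomiR share was 64.0% ± 5.21 on day 4 and 59.8% ± 1.26 on day 1, a change of 0.26 with a limma adjusted p of 0.79. The 3′ isomiR share of miR-378* was 18.8% ± 9.67 on day 4 and 9.85% ± 2.14 on day 1, a change of 1.00 with an SE of 0.47 and a limma adjusted p of 0.58, and 0.33 without the day 4 library of time course 2. Of the strands tested, 0 of 290 passed for 5′ isomiRs (0%), 0 of 296 for 3′ isomiRs (0%) and 0 of 295 for 3′ extension (0%), where 26, 24 and 15 had an unadjusted p under 0.05.

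The isomiR shares were compared in the same way for the later days and for the time courses. Over days 3 and 4 against days 1 and 2, the log2 odds changed by 0.15 and 0.20 for the 5′ isomiR shares of miR-378 and miR-378*, with limma adjusted p of 0.78 and 0.85. They changed by 0.16 and 0.62 for the 3′ isomiR shares of miR-378 and miR-378*, with limma adjusted p of 0.77 and 0.56, and by 0.16 for the 3′ extended share of miR-378, with 0.88. Between time course 2 and time course 1 the 3′ isomiR share of miR-378 was 60.7% ± 1.41 (n = 4) against 63.8% ± 3.57 (n = 3), a difference of −0.23 with a limma adjusted p of 0.63. In both of these comparisons 0% of the strands passed for each kind of isomiR, where between 18 and 53 of them had an unadjusted p under 0.05.

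Tags that differ from the hairpin were few for miR-378 and more frequent for miR-378*. No mismatch was found in 97.9% of miR-378 tags and in 94.0% of miR-378* tags, and the rest differed at 1 base, with 0 tags of either strand at 2 mismatches. Mismatched miR-378 tags made up 1.64% to 3.15% of a library's miR-378 tags. For miR-378* the range was wider, from 3.06% to 19.2%, and the highest value belonged to the day 1 library of time course 2. There 8.95% of miR-378* tags differed at hairpin position 22 and 6.19% at position 23, where the day 1 library of time course 1 had 1.42% and 0.617%. The day 4 library of time course 2 had the next highest mismatched share, with 7.50% at position 22 and 0.478% at position 23. The other 5 libraries had 0.756% to 2.75% at position 22. The most frequent mismatched miR-378* tag, a 22 nt tag with its change at position 22, had 582 counts, 232 of them in the day 1 library of time course 2. Neither strand had a tag whose last base differed from the hairpin, and over all placed tags 0.0142% did. The paper reported single added 3′ bases that differ from the hairpin in a much larger share of its generic miRNA tags. Why the deposited tags show so few was not tested. The 7371 miR-378 tags that ran past the hairpin's last base, or 1.13%, carry uncalled bases there, so added bases that the hairpin does not encode cannot be counted from these tags.

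The strands whose log2 CPM followed miR-378 most closely over the 7 libraries were miR-878-5p (Pearson r 0.97), miR-222-3p (0.89), miR-409-3p (0.88), miR-221-3p (0.87) and miR-3066-5p (0.86). Of these, miR-878-5p, miR-409-3p and miR-3066-5p rest on 212, 156 and 158 tags in all. miR-222-3p had 410, 250, 358 and 344 CPM on days 1, 2, 3 and 4 of time course 2, and 292, 120 and 98.99 CPM on days 1, 3 and 4 of time course 1. It was thus lowest where miR-378 was lowest. Those closest to miR-378* were miR-330-3p (0.97), miR-324-5p (0.92), miR-701-5p (0.90), miR-1195-3p (0.89) and let-7i-3p (0.89). This second set rested on 1 library. Without the day 4 library of time course 2 the r with miR-378* was 0.66 for miR-330-3p, 0.17 for miR-324-5p, 0.72 for miR-701-5p, 0.27 for miR-1195-3p and 0.62 for let-7i-3p. The r of miR-378* with miR-378 itself was −0.51, and 0.13 without that library. All of these are descriptions over 7 points that share library scaling, and the closest of 460 strands are high by selection.

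The wider set of miRNAs known for roles in mitochondria or energy metabolism had tags for 14 of its 15 miRNAs. They made up 14.6% ± 0.63 of tags (SD, n = 7), and miR-1a-3p, miR-15b-5p, miR-107-3p, miR-103-3p, miR-23a-3p, miR-210-3p and miR-484 led it at 64489, 16076, 14076, 11709, 11567, 9187 and 6233 CPM. The level of miR-378 lies within that range. Of its 27 strands tested, 0 passed for day 4 against day 1, with a median log2 change of 0.17 against 0.00 for all strands. For days 3 and 4 against days 1 and 2, 1 of the 27 strands rose and 0 fell, where 0.492% of all strands passed. It was miR-210-5p, of the hypoxia-induced miR-210 hairpin, with a log2 change of 1.87 (SE 0.29, edgeR adjusted p 0.015). The list's median was 0.17, against 0.01 for all strands. Between time course 2 and time course 1, 1 of the 27 strands was higher and 3 were lower, where 9.09% of all strands passed, with a median of 0.11 against 0.01 for all strands. miR-130b-5p was higher by 0.93 (edgeR adjusted p 0.030). miR-210-3p was lower at −1.49 (edgeR adjusted p 3.8e-05), miR-33-5p at −1.30 (0.0028) and miR-208a-3p at −1.17 (0.013).

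mir-378 was also placed beside other miRNAs that sit in introns of muscle or metabolic genes: miR-208a of Myh6, miR-208b of Myh7, miR-499 of Myh7b, miR-33 of Srebf2, miR-103 of Pank3 and Pank2, and miR-107 of Pank1. These 6 made up 2.89% ± 0.47 of tags together. miR-378 was above each of their strands in mean CPM, with miR-107-3p next, which did not stand apart from it beyond the spread. Of 11 strands tested, 0 passed for day 4 against day 1 or for days 3 and 4 against days 1 and 2, with medians of 0.26 in both, against 0.00 and 0.01 for all strands. Between time course 2 and time course 1, 0 of 11 were higher and 2 were lower, miR-33-5p and miR-208a-3p, where 9.09% of all strands passed. The list median was −0.31, against 0.01 for all strands.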

How the data were processed

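The 7 libraries hold SOLiD reads of HL-1 small RNA. The authors matched the reads to miRBase hairpins and deposited, for each library, the raw count of each distinct tag (genome label mm9). Tags of at least 16 nt were placed here on all 2202 GENCODE hairpins (vM21, GRCm38). The best ungapped hits with at most 2 mismatches and up to 4 bases past the hairpin were taken. Of these hits, those on the 623 annotated copies of the 552 of 572 hairpins listed by the study that matched by name were kept. Another 101 lines (293 tags) hold no sequence and were not used. Tags on several of these hairpins were divided equally, so counts can be fractional.

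Abundance was tested with edgeR 4.0.16 (TMM, filterByExpr, quasi-likelihood) over all strands, and rounded counts with DESeq2 1.42.0 as an alternative. Shares were tested with limma 3.58.1 on log2 odds (pseudocount 0.5, at least 50 tags in every library and 10 of each outcome). P-values were adjusted over all features tested by Benjamini-Hochberg, threshold 0.05. Differences between strands used exact sign-flip permutation. The fold is from RNAfold 2.7.2. The scripts were tested on simulated data. The miRNA and the lists were chosen with earlier results of these data known. Named strands were both strands of mir-378, its relatives, the 3 strands next above and the 3 next below in mean CPM, the 5 most correlated with each strand, and list members past a test with up to 6 others by CPM. Strands outside this rule were named after their values were seen.

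Libraries of a time course share its number. Their deviations from the day means correlated with r of 0.34 to 0.37 over 704 strands for the 3 pairs of days, so time course was tried as a block. Same-day libraries differed far beyond counting noise.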

Additional observations from a re-analysis of the deposited data

Results flagged for a closer look

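In 45 checks of 15 measures over all 7 libraries, the 4 libraries of time course 2 and the 4 libraries of days 3 and 4, which overlap, 17 values lay far from the rest of their group. Chance would give about 1 in 20, but these checks are not independent. Several measures restate each other, since they come from the same miR-378* tags, so a single unusual library can be flagged many times. The day 4 library of time course 2 held 16 of them. There the log2 CPM of miR-378* was 6.51, and the log2 odds of its share of hairpin tags was −7.80, each far below the rest over all libraries and over days 3 and 4. The 5′ isomiR share of miR-378* was 9.62% and its 3′ isomiR share 25.6%, with 22.8% of tags shortened at the 3′ end and a mean length of 21.5 nt, while the 5′ isomiR share of miR-378 was 3.82% and stood apart within time course 2. In the other case the day 3 library of time course 1 had 2.46% mismatched miR-378 tags, above the other 3 libraries of days 3 and 4 but within the range of all 7.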

How the results depend on the processing

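Of 178 alternatives that kept all libraries or compared within a time course, 168 left the direction and the side of the threshold as they were, and of 182 fits without 1 library, 163 did. Changes are on the log2 or log2 odds scale. With library totals in place of TMM the median of all strands moved to −0.15 for day 4 against day 1 and to −0.19 for days 3 and 4 against days 1 and 2, and miR-378 moved with it to −0.10 and −0.024, which is 0.05 and 0.17 above those medians. With time course as a block the day 4 change of miR-378 was −0.013, and pairing changed no other call of mir-378. For time course 2 against time course 1, the 5′ isomiR share of miR-378 was −0.014 with time course alone. There miR-378* passed at −1.17 (edgeR adjusted p 0.0026) with no filter on low counts, and at −1.21 (0.037) with tags on several hairpins dropped, where its adjusted p over all alternatives ran between 0.0026 and 0.92. The sign-flip differences between strands were 3.28 and 2.78 points for 5′ isomiRs, and −47.1 and −52.0 points for 3′ isomiRs, within time course 2 and time course 1, too few libraries to pass.

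Leaving out 1 library at a time gave, for day 4 against day 1, −0.53 to 0.43 for miR-378, −3.39 to 0.10 for miR-378*, −3.75 to 0.69 for the miR-378* share, −0.057 to 0.41 and −0.081 to 0.74 for the 5′ isomiR shares of miR-378 and miR-378*, and −0.026 to 0.33 for the 3′ extended share of miR-378. For days 3 and 4 against days 1 and 2 it gave −0.56 to 0.16 for miR-378*, −1.30 to 0.25 for its share and −0.015 to 0.30 for its 5′ isomiR share. For time course 2 against time course 1 it gave −2.67 to −0.45 for the miR-378* share, −0.21 to 0.14 and −0.11 to 0.37 for the 5′ isomiR shares of miR-378 and miR-378*, and −0.37 to 0.55 for the 3′ isomiR share of miR-378*. The sign changes of miR-378* and of its share against the days came without the day 4 library of time course 2, and for miR-378* over days 3 and 4 also without the day 2 library. Beyond this the cause was not tested.

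Strands called numbered 0 with edgeR, 12 with DESeq2 and 46 with the block for day 4 against day 1, 3 with edgeR and 15 with DESeq2 for days 3 and 4 against days 1 and 2 (0 without the day 1 library of time course 2), and 64 for time course 2 against time course 1, where alternatives gave 35 with library totals, 37 with time course alone, 17 with generic tags, 100 over all annotated hairpins and 0 to 71 with 1 library left out. The alternative over all annotated hairpins was chosen after seeing the data and changed no call or direction of mir-378. Day 2 has 1 library, and whether the cultures of a repeat were otherwise independent is not stated, so p-values measure only the spread between these libraries.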
